A study of Mus musculus with 8 samples.

Results

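The genes described here encode antibody chains: heavy chain constant regions, the variable and joining segments of heavy and light chains, and Jchain, the joining chain of secreted IgM and IgA. They were chosen by symbol alone, as the genes beginning with Ighv, Ighd, Ighj, Ighg, Ighm, Igha, Ighe, Igkv, Igkj, Igkc, Iglv, Iglj or Iglc, and Jchain, without Ighmbp2, which is a helicase. Of 22180 genes named by a probe set with a single gene symbol, 21 met this rule, and 11 of them were bright enough to be tested. RNA of the left epididymal fat pad, a white fat depot beside the epididymis, was measured on Affymetrix Mouse Gene 2.0 ST arrays in 8 male C57BL/6 mice, 1 array per mouse. All 8 mice were weaned into individual cages at 3 weeks of age, onto an n-6 rich high-fat diet (45% of energy), and were killed at 10 weeks. In the prednisolone group (GC+, 4 mice) the glucocorticoid prednisolone, given in the labels as 40 mg per kg per square metre, was fed daily in sweet potato puree for 4 weeks from 6 weeks of age, and the vehicle group (GC-, 4 mice) was fed the puree alone. The comparison asks how antibody transcripts in this fat pad vary with long-term glucocorticoid feeding under such a diet.

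Antibodies are made by B lymphocytes and, in much larger amounts, by the plasma cells they give rise to. Each developing B cell joins a variable segment to a joining segment (with a diversity segment between them in the heavy chain) by DNA recombination and so transcribes its own pair of heavy and light chain segments, which its descendants keep. Visceral fat holds B cells that respond to a fatty diet, and glucocorticoids are known to be toxic to lymphocytes. In RNA of whole tissue, fewer cells of a type and less RNA per cell cannot be told apart.

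The 21 genes are a small sample of the loci. RefSeq's table for GRCm38.p6 holds 396 genes that meet the same rule, pseudogenes included, and all 21 genes were found in it by symbol. They comprised 2 of 8 heavy chain constant regions (Ighm, of IgM, and Ighg3, of IgG3), 3 of 183 heavy chain variable segments, 13 of 162 kappa light chain variable segments, 1 of 5 kappa joining segments, 1 of 3 lambda variable segments and Jchain. The other constant regions, such as Igha, Ighd, Ighg1, Ighg2b, Ighg2c and Igkc, were not named by a probe set of a single symbol and were not analysed here. The heavy chain genes lie on chromosome 12, the kappa genes on chromosome 6, the lambda genes on chromosome 16 and Jchain on chromosome 5. Igkv4-72 and Igkv4-70 were the closest members in the order of the kappa segments, with 2 other segments between them. In a segment's symbol the first number is its family and the second its place in the locus, as in Igkv4-72. Segments of a family are alike, so a probe set may also read RNA of relatives, which was not tested.

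Jchain was the only member with a sequence in the RefSeq promoter table (1 of 21). Its upstream region is shown because Jchain is set against the other members across mice below. The octamer ATGCAAAT, the element of immunoglobulin promoters that Oct transcription factors bind, was searched on both strands (ATTTGCAT on the other) in the 300 bases from 250 before to 50 after each gene start. It was present in 1.74% of all 32851 promoters of the table and was not found in this one. The 250 bases before the start of Jchain, on the minus strand of chr5:88527898-88528147 (GRCm38.p6), are given 5′ to 3′ in lower case, with no capitals because no octamer was found.
Jchain: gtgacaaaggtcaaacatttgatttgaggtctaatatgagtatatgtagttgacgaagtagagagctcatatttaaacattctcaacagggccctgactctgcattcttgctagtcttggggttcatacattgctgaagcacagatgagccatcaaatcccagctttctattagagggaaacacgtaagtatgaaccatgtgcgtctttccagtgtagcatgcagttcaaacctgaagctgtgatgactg

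The arrays had near-equal medians, from 6.09 to 6.13 on the log2 scale, and any pair of arrays correlated at 0.879 to 0.986 across the 14787 tested genes. Adipocyte markers were bright in every mouse, with a mean log2 value over 10 tested markers of 12.39 to 12.60 in prednisolone and 12.19 to 12.66 in vehicle mice. Transcripts of the epididymis, the duct beside the pad, were highest in 3 mice, and prednisolone mouse 1 carried them at a lower level. Its mean log2 value over the tested epididymis markers was 8.44. This mean was 9.99 to 11.33 for the 3 highest mice and 5.42 to 6.69 for the rest. Fits below that leave out those 3 mice still include prednisolone mouse 1. The epididymis score, the mean over 12 tested markers of each value minus its mean over 8 mice, was 3.28 in vehicle mouse 1, 1.94 in vehicle mouse 4, 3.14 in prednisolone mouse 2 and 0.39 or less in the other 5. No gene of the array passed a limma adjusted p of 0.05 (0% of 14787), while 498 were higher and 344 lower at an unadjusted p under 0.05.

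Of the 11 tested members, 9 averaged lower and 2 higher with prednisolone, where 6712 of all 14787 tested genes averaged lower and 8075 higher, and 0 passed an adjusted p of 0.05 in limma. At an unadjusted p under 0.05 there was 1 lower member, where 2.33% of all tested genes were lower at this threshold, and 0 higher members, where 3.37% were. In 1 member every prednisolone mouse lay below every vehicle mouse, as in 1.39% of all tested genes, and in 0 members above, as in 1.81%. With 4 mice per group the exact permutation test of a gene falls under 0.05 only where the groups do not overlap. Its 1 lower and 0 higher members therefore repeat this count and add no support. The median difference, prednisolone minus vehicle, was -0.26 over the 11 members and 0.018 over all tested genes. That median moved to 0.06 without prednisolone mouse 3, to -0.03 without vehicle mouse 3, to -0.97 without vehicle mouse 1 and to -0.81 without prednisolone mouse 1, so its size and sign rest on single mice. Differences below are in log2 units, prednisolone minus vehicle, each with its standard error (SE) from the linear model over 4 mice per group.

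The 1 member whose groups were apart was Igkv15-103, a kappa light chain variable segment. It read 6.98, 6.55, 6.57 and 6.48 in prednisolone mice 1 to 4 and 8.51, 7.16, 9.72 and 9.39 in vehicle mice 1 to 4. The prednisolone mice lay close together, and the vehicle mice were spread above them, with vehicle mouse 2 nearest. The difference was -2.05 ± 0.50, 4.14-fold between the means of the log2 values, with an unadjusted p of 0.00315 and a limma adjusted p of 0.768. The two-sided exact permutation p was 0.0286, the smallest that 4 against 4 mice can give. Without the 3 mice of high epididymis score the difference was -1.77 ± 0.70 over 3 prednisolone and 2 vehicle mice (unadjusted p = 0.0446, limma adjusted p = 0.957). The standard deviation (SD) between mice was 0.22 in the prednisolone and 1.14 in the vehicle group, a contrast that was not tested.

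**Figure D1:**
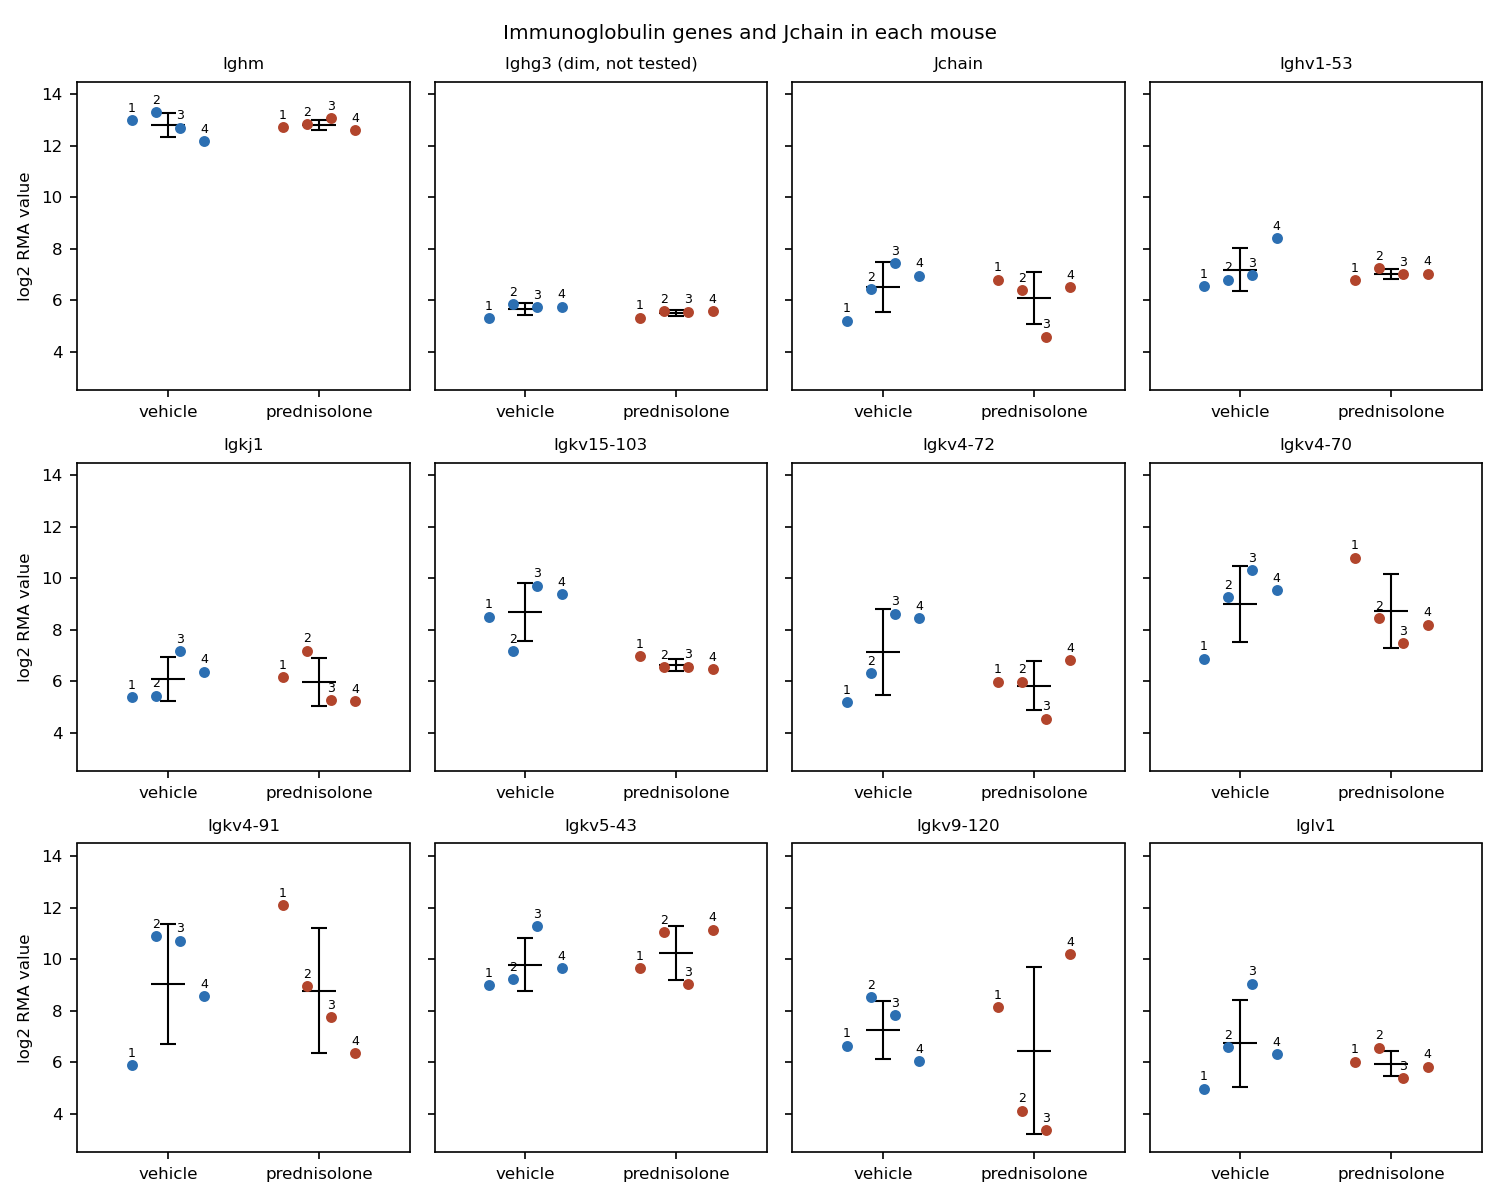
Log2 RMA value (y axis, the same in each panel) of 12 immunoglobulin genes in vehicle (blue) and prednisolone (red) mice, with each point a mouse numbered by its label, the horizontal bar the group mean and the whiskers 1 SD. The groups do not overlap in Igkv15-103, at 6.48 to 6.98 against 7.16 to 9.72, and overlap in the other 11 panels.

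Jchain, which links IgM and IgA into polymers and is abundant in antibody-secreting cells, read 6.80, 6.40, 4.59 and 6.52 in prednisolone mice 1 to 4. In vehicle mice 1 to 4 it read 5.21, 6.42, 7.45 and 6.96. Prednisolone mouse 3 and vehicle mouse 1 were low, vehicle mice 3 and 4 were above every prednisolone mouse, and the groups overlapped. The difference was -0.43 ± 0.60 (limma adjusted p = 0.865, 95% interval -1.80 to 0.93), and it was 0.06 without prednisolone mouse 3.

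Ighm, the constant region of IgM, is represented by 7 probe sets of that single symbol, and the rule keeps the one with the highest mean. This probe set read 12.73, 12.84, 13.06 and 12.62 in prednisolone mice 1 to 4 and 13.00, 13.32, 12.71 and 12.19 in vehicle mice 1 to 4. The groups overlapped, with a difference of 0.0065 ± 0.23 (limma adjusted p = 0.995, 95% interval -0.51 to 0.53). The second probe set put the mice in another order: it read 11.84, 10.68, 9.60 and 10.98 in prednisolone mice 1 to 4 and 9.79, 11.33, 12.36 and 10.39 in vehicle mice 1 to 4. Its range over the mice was 2.76, against 1.13 for the first, and like Jchain it was lowest in prednisolone mouse 3 and vehicle mouse 1 and highest in vehicle mouse 3. Prednisolone mouse 3 was thus the second highest mouse by the first probe set and the lowest by the second. When each annotated probe set was fitted separately, which was decided after the data were seen, the second differed by -0.19 ± 0.62 and the third by -0.44 ± 0.49 (limma adjusted p = 0.945 and 0.835). The fourth differed by -0.08 ± 0.16, the fifth by -0.29 ± 0.23 and the sixth, in the other direction, by 0.13 ± 0.17 (limma adjusted p = 0.918, 0.787 and 0.857). With all 7 averaged, the difference of Ighm was -0.22, so its sign is not settled. The seventh probe set, too dim to test, read 7.60 in prednisolone mouse 4 and 3.34 to 3.72 in the other prednisolone mice.

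**Figure D2:**
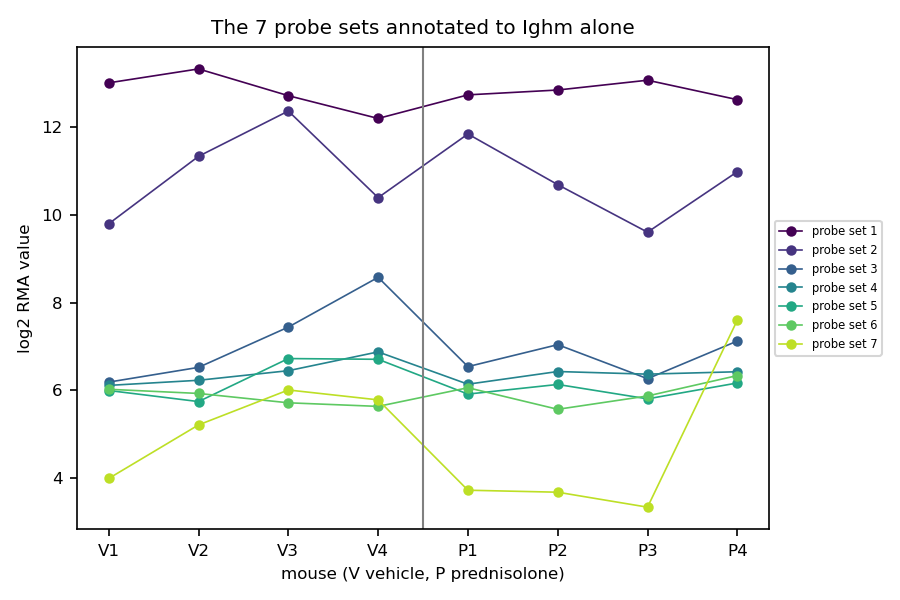
Log2 RMA value (y axis) in each mouse (x axis, V vehicle and P prednisolone, numbered by label) of the 7 probe sets annotated to Ighm alone, numbered by falling mean; lines only join the points of a probe set. The first is highest in V2 (13.32) and lowest in V4 (12.19), and the second is highest in V3 (12.36) and lowest in P3 (9.60).

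Ighg3, the constant region of IgG3, was below the brightness limit of 5.816 and was not tested. It read 5.33, 5.57, 5.56 and 5.57 in prednisolone mice 1 to 4 and 5.31, 5.85, 5.73 and 5.75 in vehicle mice 1 to 4. The groups overlapped, and the difference in a fit without the brightness limit was -0.15 ± 0.13 (limma adjusted p = 0.819).

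The heavy chain variable segment Ighv1-53 read 6.78, 7.24, 7.01 and 7.04 in prednisolone mice 1 to 4 and 6.54, 6.80, 6.99 and 8.43 in vehicle mice 1 to 4. Vehicle mouse 4 stood above the other 7 mice, which overlapped. The difference was -0.17 ± 0.37 (limma adjusted p = 0.916) and turned to 0.24 without vehicle mouse 4.

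The kappa segments differed widely from mouse to mouse. Igkv4-91 read 12.09, 8.95, 7.75 and 6.36 in prednisolone mice 1 to 4 and 5.90, 10.91, 10.73 and 8.58 in vehicle mice 1 to 4. High and low mice occurred in both groups, and the range of 6.19 was larger than that of 99.7% of all tested genes. Igkv9-120 read 8.14, 4.12, 3.37 and 10.20 in prednisolone mice 1 to 4 and 6.64, 8.53, 7.82 and 6.05 in vehicle mice 1 to 4. Its highest and lowest mice were both in the prednisolone group, and its range of 6.83 exceeded that of 99.7% of tested genes. The differences were -0.24 ± 1.44 for Igkv4-91 and -0.80 ± 1.47 for Igkv9-120, with 95% intervals of -3.54 to 3.06 and -4.16 to 2.56, which take in large differences of either sign. Prednisolone mouse 4 was highest of all for Igkv9-120 and lowest of its group for Igkv4-91, and prednisolone mouse 1 was highest of all for Igkv4-91. Without prednisolone mouse 3 both differences turned, to 0.10 for Igkv4-91 and 0.23 for Igkv9-120.

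The pair Igkv4-72 and Igkv4-70, near each other in the kappa locus, had much of their order of mice in common and differed mainly in prednisolone mice 1 and 4. Igkv4-72 read 5.98, 5.99, 4.55 and 6.82 in prednisolone mice 1 to 4 and 5.18, 6.31, 8.63 and 8.45 in vehicle mice 1 to 4. Vehicle mice 3 and 4 stood above the other 6 mice, and the difference was -1.31 ± 0.82 (limma adjusted p = 0.768). It was -0.81 without vehicle mouse 3 and -1.96 without vehicle mouse 1, where the unadjusted p was 0.024. Igkv4-70 read 10.80, 8.46, 7.48 and 8.20 in prednisolone mice 1 to 4 and 6.88, 9.26, 10.32 and 9.53 in vehicle mice 1 to 4. Vehicle mice 3, 4 and 2 and prednisolone mouse 2 came in that falling order for both segments, and prednisolone mouse 3 and vehicle mouse 1 were the lowest for both. For Igkv4-70 prednisolone mouse 1 was highest, the groups overlapped, and the difference was -0.26 ± 0.88 (limma adjusted p = 0.947), or 0.18 without vehicle mouse 3.

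Igkv5-43 was the only tested segment with a higher mean in prednisolone mice, 10.23 against 9.79 (0.44 ± 0.63, limma adjusted p = 0.871). It read 9.66, 11.06, 9.04 and 11.16 in prednisolone mice 1 to 4 and 9.0, 9.22, 11.28 and 9.67 in vehicle mice 1 to 4. Each group held high and low mice, and without the 3 mice of high epididymis score the difference was -0.30. These values are of the brightest of 3 Igkv5-43 probe sets. The others averaged 3.79 and 3.06 over the mice and were too dim to test. With all 3 averaged, Igkv5-43 was too dim and dropped out of the fit, so its higher mean rests on 1 probe set. The joining segment Igkj1 read 6.17, 7.19, 5.27 and 5.22 in prednisolone mice 1 to 4 and 5.39, 5.44, 7.17 and 6.37 in vehicle mice 1 to 4, also overlapping (-0.13 ± 0.54, limma adjusted p = 0.958, and 0.23 without vehicle mouse 3).

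Iglv1, a variable segment of the lambda light chain, which mice use far less than kappa, read 6.02, 6.57, 5.39 and 5.83 in prednisolone mice 1 to 4. In vehicle mice 1 to 4 it read 4.98, 6.59, 9.06 and 6.32. Vehicle mouse 3 stood apart from the other 7 mice, and the difference of -0.78 ± 0.75 (limma adjusted p = 0.817) became -0.01 without it. Without the 3 mice of high epididymis score the difference was -2.08 ± 0.68 (unadjusted p = 0.0222, limma adjusted p = 0.957) and the groups were apart, in a fit with vehicle mouse 3 as 1 of 2 vehicle mice. Groups of so few mice come apart easily, and the share of all tested genes apart in that setting was not counted.

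**Figure D3:**
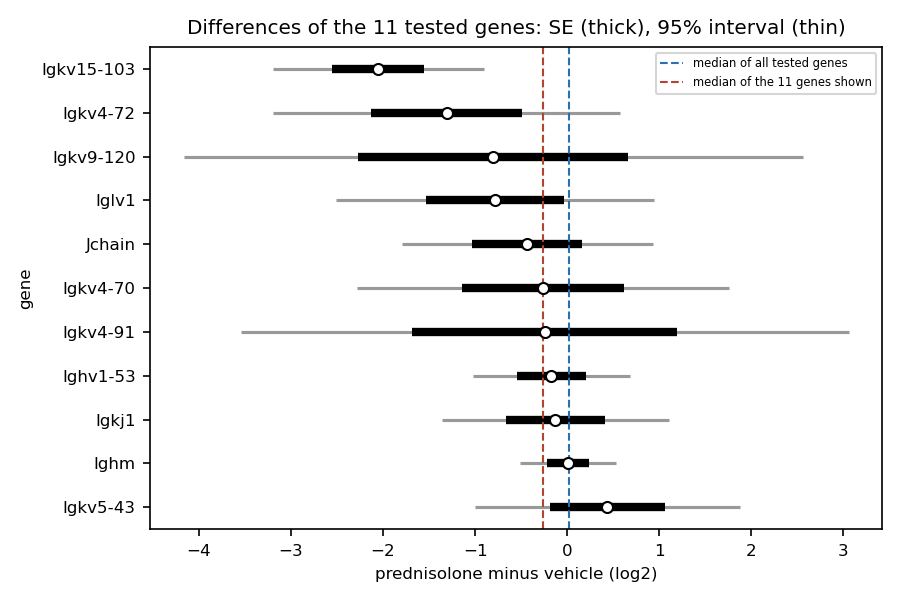
Difference between prednisolone and vehicle means (x axis, log2) of the 11 tested genes (y axis), with thick bars for 1 SE and thin bars for the 95% interval; dashed lines mark the median of these 11 (-0.26) and of all tested genes (0.018). The interval of Igkv15-103 lies below 0 and those of the other 10 genes include 0, while none passed the adjusted threshold.

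The 9 dim variable segments, Ighv1-47, Ighv1-54, Igkv1-133, Igkv4-59, Igkv6-14, Igkv6-23, Igkv8-19, Igkv8-30 and Igkv9-124, were not tested. In a fit without the brightness limit their differences ran from -1.22 for Igkv4-59 to 0.47 for Igkv9-124, and 0 of 9 had an unadjusted p under 0.05. Both ends were singled out after their values were seen. Igkv4-59 read 5.45 in vehicle mouse 3 and 5.62 in vehicle mouse 4 but 2.46 to 3.74 in the other 6 mice, so the mice that were high for it were those high for Igkv4-72. Igkv9-124 read 4.83 in prednisolone mouse 4 and 2.76 to 3.45 elsewhere, and that mouse was also the highest for Igkv9-120 of the same family.

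A further 5 probe sets carry several symbols, at least 1 of them from these loci, and cannot be assigned to a gene. Fitted among all annotated probe sets after the data were seen, all 5 averaged lower with prednisolone, by -0.76 ± 0.55 (Ighg3, Ighv1-47 and Ighm), -0.57 ± 0.38 (Ighv1-54, Igkv1-135 and Ighm), -0.23 ± 0.20 (Ighv1-72 and Ighm), -0.31 ± 0.70 (Igkv4-53, Igkj1 and Igkv6-23) and -0.38 ± 0.29 (Igkv9-124 and Igkv4-70). None passed in limma, with adjusted p from 0.764 to 0.921, and the groups overlapped in each. The share of all fitted probe sets that averaged lower was not counted. Each of the 5 carries the symbol of a tested member (Ighm, Igkj1 or Igkv4-70), so their common direction is not separate support. The kappa probe set of Igkv4-53, Igkj1 and Igkv6-23 read 11.73, 11.41, 9.14 and 11.91 in prednisolone mice 1 to 4. In vehicle mice 1 to 4 it read 10.04, 11.43, 12.55 and 11.42, so prednisolone mouse 3 and vehicle mouse 1 were again the lowest and vehicle mouse 3 the highest.

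**Figure D4:**
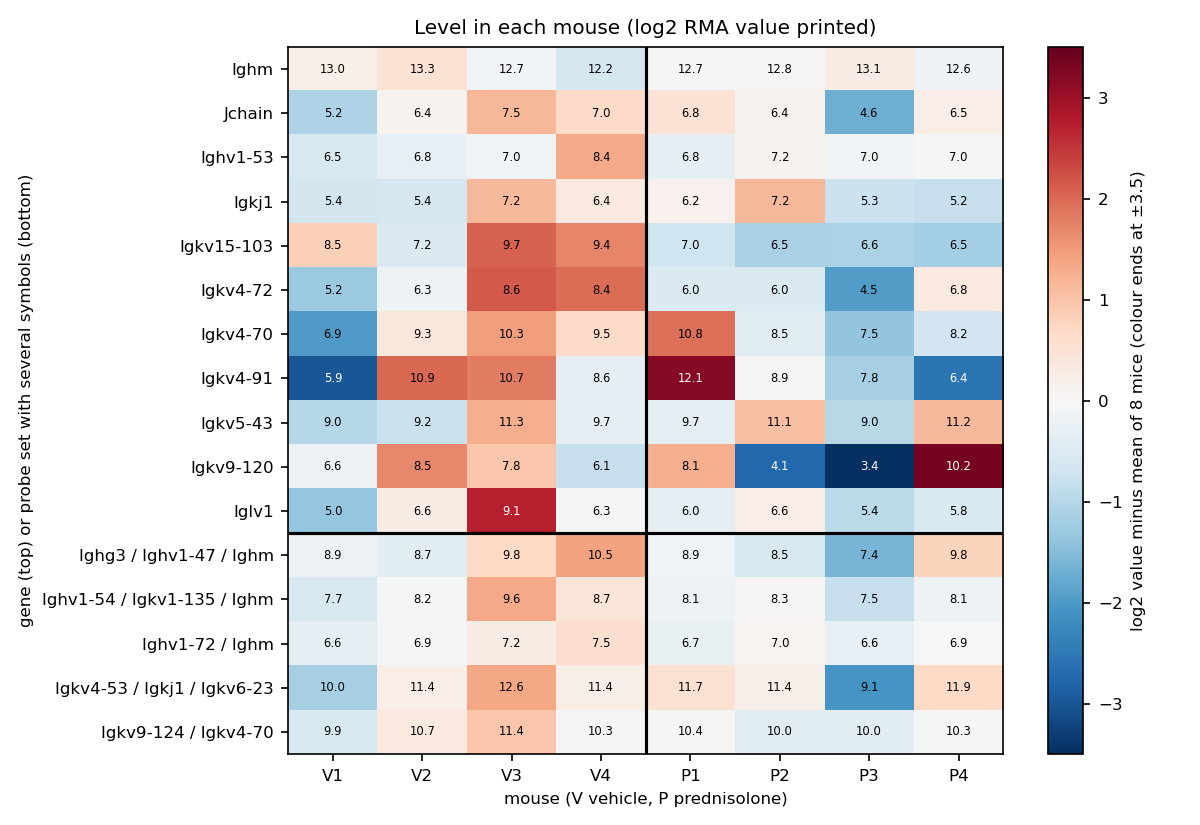
Log2 RMA value (printed) of the 11 tested genes and the 5 probe sets with several symbols (rows) in each mouse (columns, V vehicle and P prednisolone), coloured by the value minus the mean of the 8 mice. V3 is mostly red and P3 and V1 mostly blue, while Igkv4-91 and Igkv9-120 each pick out different mice.

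The spread between mice is given here as a description, with no test. The median SD within a group was 1.04 over the 11 tested members and 0.17 over all tested genes, and the median SE of a difference was 0.63 against 0.12. The range over 8 mice exceeded 2, a 4-fold span, in 8 of 11 members (72.7%) and in 3.94% of all tested genes. The smallest range among them was that of Ighm, 1.13. Vehicle mouse 3 was the highest mouse for 5 members and among the top 2 for 7. Vehicle mouse 1 was the lowest for 5 and prednisolone mouse 3 for 3, and each was among the bottom 2 for 7. Vehicle mouse 1 had an epididymis score of 3.28 and prednisolone mouse 3 one of -2.53, and what made these mice low was not tested.

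Jchain was set against 12 other genes and Gpx5, an epididymal glutathione peroxidase, across the 8 mice, 13 relations in all, of which 4 were fixed in the design and 9 (the other tested segments) were added after the data were seen. Prednisolone mouse 3 and vehicle mouse 1, the low Jchain mice, were the 2 farthest from the median and were left out in the second r given. Pearson's r was positive in 12 of 13 relations, and 0 passed a permutation p of 0.05 after Benjamini-Hochberg adjustment. The largest was with Igkv4-72 (r = 0.87, exact permutation p = 0.00885, adjusted 0.0576; rho = 0.86, exact permutation p = 0.0107, adjusted 0.1; r = 0.82 over 6 mice). With Igkv4-70 r was 0.83 (exact permutation p = 0.00880, adjusted 0.0576; rho = 0.83, exact permutation p = 0.0154, adjusted 0.1; r = 0.68 over 6 mice). With Cd79a, a chain of the B cell receptor complex, r was 0.66 (exact permutation p = 0.0734, adjusted 0.188; rho = 0.79, exact permutation p = 0.0279, adjusted 0.121; r = 0.83 over 6 mice). Cd79a itself spanned only 5.99 to 6.31 over the mice, just above the brightness limit of 5.816, so this relation rests on small differences. With Mzb1, a chaperone of antibody assembly, r was 0.65 (exact permutation p = 0.0866, adjusted 0.188; rho = 0.57, exact permutation p = 0.151, adjusted 0.281) and 0.24 over 6 mice, so that relation rests on the 2 low mice. Ighm, by its first probe set, was the negative one (r = -0.53, exact permutation p = 0.182, adjusted 0.237). Its rho was -0.74 (exact permutation p = 0.0458, adjusted 0.149), and r was -0.45 over 6 mice. The second Ighm probe set, like Jchain, was lowest in prednisolone mouse 3 and vehicle mouse 1 and highest in vehicle mouse 3. Its relation to Jchain was not computed, so the negative sign is that of the first probe set only. With Gpx5 r was 0.18 (exact permutation p = 0.647, adjusted 0.647; rho = 0.02, exact permutation p = 0.977, adjusted 0.977; r = 0.20 over 6 mice).

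**Figure D5:**
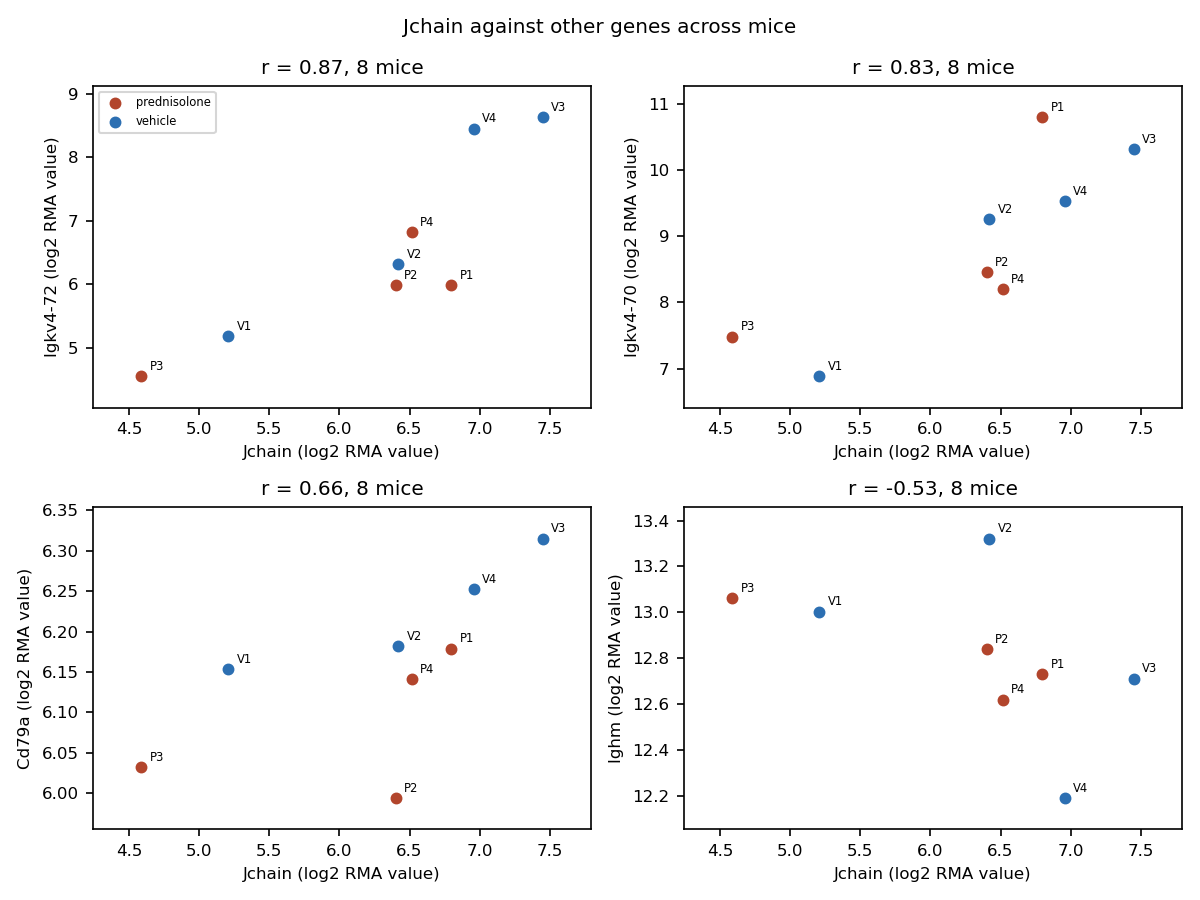
Jchain (x axis) against Igkv4-72, Igkv4-70, Cd79a and Ighm (y axes), all as log2 RMA values, with each point a mouse, prednisolone in red and vehicle in blue. P3 and V1 lie at the low end of Jchain in each panel, where Ighm, by its first probe set, is high (r = -0.53). The other 3 genes are mostly low there.

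The B lineage genes outside the loci had no called member either. Of 17 tested B cell identity genes 9 averaged higher and 8 lower, with 0 at an unadjusted p under 0.05 and a median of 0.0054, against 0.018 over all tested genes. Cd79a, which averaged 6.09 against 6.23, and its partner Cd79b differed by -0.14 ± 0.08 and 0.01 ± 0.09 (limma adjusted p = 0.768 and 0.971). The mean log2 value of the list lay between 6.73 and 7.0 in prednisolone and between 6.68 and 7.03 in vehicle mice. Only 17 of its 21 genes on the array passed the brightness limit of 5.816. Some lay just above it, such as Pax5 (5.82 with prednisolone, 5.85 with vehicle) and Blk (5.88 and 5.91). Ebf1, bright at 11.15 and 11.01, is also used by other cell types. Low signals are compressed, so these values cannot show whether B cell content changed. The plasma cell list had 3 of 11 tested genes higher and 8 lower, 0 at an unadjusted p under 0.05 and a median of -0.07. Mzb1 differed by 0.0058 ± 0.17 (limma adjusted p = 0.995). The mean log2 value of this list was 8.42, 8.39 and 8.46 in vehicle mice 1 and 4 and prednisolone mouse 2, the 3 mice of high epididymis score, and 7.82 to 8.06 in the other 5. On this list Derl3, Fkbp11, Creld2 (all of the endoplasmic reticulum) and Sdc1, the plasma cell surface proteoglycan that epithelia also carry, were each highest in those 3 mice. Derl3, for example, read 8.96, 8.09 and 8.82 there and 5.90 to 6.30 in the other 5 mice. The rest of the 11 tested genes of the list did not share this order. Mzb1 and Irf4 were lowest in vehicle mouse 1, at 6.19 and 6.22, and Slamf7 was highest in prednisolone mouse 1, at 8.25. The part of epididymal RNA in the plasma cell list was not tested.

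The other lists were counted in the same way. Of all 14787 tested genes, 8075 averaged higher and 6712 lower. Cd79b, Pax5, Blk, Ebf1, Derl3, Fkbp11, Creld2, Sdc1, Irf4, Slamf7, Bhlhe41, Il7r, Cxcl13 and Fcgr2b are named here after their values were seen. Of 7 tested genes of B-1 and innate B cells 4 averaged higher and 3 lower (median 0.04). Of 6 tested germinal centre and class switch genes 5 were higher and 1 lower (median 0.08). Either list had 0 at an unadjusted p under 0.05. Bhlhe41, of the B-1 list, read 8.57, 7.89 and 8.36 in vehicle mice 1 and 4 and prednisolone mouse 2, the 3 mice of high epididymis score. It read 6.39 to 6.84 in the other mice. Of the B cell precursor list only 2 genes were tested, both higher on average. At an unadjusted p under 0.05, 1 of them was higher (Il7r, the interleukin 7 receptor, also of T cells), against 3.37% of all tested genes. Of 7 tested signals that support B cells and lymphoid clusters 3 were higher and 4 lower (median -0.03). Cxcl13, the chemokine that draws B cells into such clusters, was high in vehicle mice 3 and 4, at 9.12 and 9.31, the mice high for Igkv4-72, and lay between 7.09 and 8.60 elsewhere. The match was partial, as the next highest for Cxcl13 was prednisolone mouse 3 at 8.60, the lowest mouse for Igkv4-72 at 4.55. Of 11 tested receptors and transporters of antibodies 9 were higher and 2 lower (median 0.27). At an unadjusted p under 0.05, 1 of 11 was higher, against 3.37% of all tested genes. That gene was Fcgr2b, the inhibitory IgG receptor of B cells and macrophages. It averaged 10.52 against 10.07 (0.45 ± 0.14, limma unadjusted p = 0.012, limma adjusted p = 0.768). Macrophage markers, a list with no gene in common with the receptors, averaged higher for 13 of 14 (median 0.33), and 4 of 14 were higher at an unadjusted p under 0.05, against 3.37% of all tested genes, with list levels of 9.29 to 9.54 in prednisolone and 8.74 to 9.59 in vehicle mice. The part of macrophages in the receptor values was not tested. Of 8 tested T cell markers 5 were higher and 3 lower (median 0.12), and of 12 epididymis markers 4 were higher and 8 lower (median -1.26), with 0 at an unadjusted p under 0.05 in both.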

How the data were processed

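The authors deposited log2 expression values made by robust multiarray averaging (RMA), per the sample descriptions. Affymetrix Expression Console and Partek 6.6 are named in the submitters' processing notes. RMA subtracts background, equalises array distributions and combines the probes of a set, so low signals are compressed. No build or annotation version is given in the labels or notes used. Of 41345 probe sets, 23521 had 1 symbol in the platform annotation, 1814 several and 16010 none. For a gene with several probe sets the brightest on average was kept, and the dimmest 33.3% of genes were left out. Groups were compared over the remaining 14787 genes in limma 3.58.1 (R 4.3.3, lmFit and eBayes, no block), tested first on simulated data, with Benjamini-Hochberg adjustment. Exact permutation tests are two-sided. Replicates are biological per the labels, and the number of arrays limits precision. Named were the 2 constant regions, Jchain and, of the tested segments, the 6 with the lowest p per direction, the 6 brightest and the 4 of widest range, which took in all 9. Members, lists and tests were chosen with earlier results of these data known. Alternatives changed the brightness limit, normalization, probe set choice, variance model, array weights, replicate block and mice included. Same-numbered mice did not pair: the correlations of their deviations ran from -0.58 to 0.13.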

Additional observations from a re-analysis of the deposited data

Results flagged for a closer look

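In Ighg3 among prednisolone mice, mouse 1 read 5.33 while the other 3 lay between 5.56 and 5.57, a gap of 98.1% of the group's range by Dixon's ratio. This was 1 of 24 groups of 4 examined (12 genes in both groups), and chance flags about 1 in 20. The whole range is small, and this gene lay below the brightness limit.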

How the results depend on the processing

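The count of members past an adjusted p of 0.05 was 0 under all 18 alternatives run, and members with an unadjusted p under 0.05 numbered 0 higher throughout and 1 lower in all but a pair of settings. Without the arrays of epididymis score over 1 there were 2 lower members and 2 with groups apart, and leaving out each mouse gave 1 to 2 lower members. The first of these settings leaves 3 prednisolone and 2 vehicle mice, so groups come apart more easily than with 4 mice in each. It also keeps prednisolone mouse 1, which carried epididymal transcripts at a lower level. The shares of all tested genes apart or under that p were not counted there, so the rise from 1 to 2 is not read as a stronger result. The median difference of the members ran from -0.97 to 0.06 over the alternatives and was -0.26 with the replicate block. Over 182 single-gene comparisons with the main values, 158 kept their sign and 24 did not, and 0 passed the threshold. Igkv15-103 kept its sign in 17 of 17, from -2.56 to -1.71 (adjusted p 0.355 to 0.979), and Igkv4-72 and Iglv1 in 16 of 16. Signs turned for Ighm with a repeated quantile normalization (-0.0076), all probe sets averaged (-0.22) and without the arrays of high epididymis score (-0.21). In that last setting Ighv1-53 (0.049) and Igkv5-43 (-0.30) turned too. Array weights turned Igkv4-70 (0.012), Igkv4-91 (0.46) and Igkv9-120 (0.40). Without each mouse in turn the difference ran from -0.20 to 0.18 for Ighm, -0.39 to 0.24 for Ighv1-53, -0.54 to 0.23 for Igkj1, -0.97 to 0.18 for Igkv4-70, -1.35 to 0.57 for Igkv4-91, -2.05 to 0.23 for Igkv9-120 and -0.87 to 0.063 for Jchain. The cause was not tested. With 4 mice per group and this spread, the array number limits what can be seen.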
